A study of Mus musculus with 6 samples.

Results

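The cells described here were immune cells of the jejunal epithelium that held RNA of Cd8b1 or Cd4 and none of Trdc, and they numbered 62 among the 26696 cells of 6 libraries that passed limits on genes and mitochondrial RNA (0.232%). They were chosen by their own counts. A cell needed at least 750 genes and at most 20% mitochondrial UMIs, where a UMI (unique molecular identifier) marks 1 captured RNA molecule. It also needed at least 5 UMIs summed over Cd3e, Cd3g, Cd7, Ptprc, Ccl5 and Gzma, making up at least 0.15% of its UMIs, which is called the immune limit below and was met by 1692 cells. Among these, 612 cells held at least 1 UMI of Trdc, the constant region of the T cell receptor delta chain, 62 held none of it and at least 1 UMI of Cd8b1 or Cd4, and 1018 held none of the 3 genes. The genes of this rule therefore describe the selection and are no finding.

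Intraepithelial lymphocytes sit between the epithelial cells of the gut and are mostly T cells. Most T cells carry a receptor of an alpha and a beta chain, bound to the CD3 proteins that pass its signal on, and a coreceptor, either CD4 or a CD8 dimer. CD8 beta, encoded by Cd8b1, pairs with CD8 alpha on conventional T cells, many of which enter the gut after an encounter with antigen ("induced" cells), whereas "natural" intraepithelial T cells, including most that carry the gamma-delta receptor, often carry CD8 alpha alone together with molecules of natural killer cells.

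All mice were adult male C57BL/6J mice of about 30 weeks. They had their diet for 16 weeks before surgery, returned to it afterwards and were killed 5 weeks after surgery. The jejunum was separated into a crypt and a villus suspension. LFD sham mice ate a low-fat diet and had a sham operation (3 mice pooled), HFD sham mice ate a high-fat diet and had a sham operation (3 mice pooled), and HFD VSG mice ate the high-fat diet and had a vertical sleeve gastrectomy, in which most of the stomach is removed (2 mice pooled). Each group gave 1 crypt-labelled and 1 villus-labelled library of droplet-based 3′ RNA counts. There are no replicates, so no test between groups was possible and no p-value is given. Intervals in brackets are exact 95% intervals that cover counting error only, not the differences between mice or preparations. Those of ratios also leave out the differences between cells.

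Called barcodes held 60522766 to 155522445 UMIs per library. The epithelial cells of the libraries did not match the crypt and villus labels: Olfm4, a marker of crypt stem cells, stood at 78.9 to 133 CPM (a gene's counts scaled to a common total of UMIs) in the crypt-labelled libraries and at 177 to 491 CPM in the villus-labelled ones, and Apoa4, a product of villus enterocytes, stood at 5718 to 9525 CPM in the former and 1076 to 2981 CPM in the latter. Lyz1, a marker of Paneth cells of the crypt, stood at 1289 CPM in the crypt-labelled and 7929 CPM in the villus-labelled library of LFD sham mice. It stood at 1234 and 4564 CPM in those of HFD sham mice, but at nearly equal levels, 1317 and 1327 CPM, in those of HFD VSG mice. The fraction names are therefore used below only as library names. The HFD sham villi library stood apart, with 5 cells past the immune limit among 4315. No barcode was shared between libraries among the cells past the immune limit, and 99 were, summed over pairs of libraries, among all cells passing the gene and mitochondrial limits.

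The Cd8b1/Cd4 cells came almost entirely from LFD sham and HFD VSG mice. The LFD sham crypts gave 11 and the villi of the same mice 27. HFD sham mice gave 0 from crypts and 1 from villi, and HFD VSG mice 2 from crypts and 21 from villi. In LFD sham mice they were 7.69% (3.90 to 13.3) of the 143 cells past the immune limit from crypts and 3.74% (2.48 to 5.40) of the 721 from villi. In HFD VSG mice they were 2.30% (0.280 to 8.06) of 87 from crypts and 3.26% (2.03 to 4.93) of 645 from villi. These intervals overlapped. In the HFD sham crypts 0 of 91 immune cells were of this kind, which allows a share of up to 3.30% counted as 3 cells, or 3.97% by the exact interval. The latter includes the shares of the 2 large villus-labelled libraries but not the 7.69% of the LFD sham crypts, whose own interval starts at 3.90%. Of the 11 cells behind that 7.69%, 2 held no T cell receptor or CD3 UMI, as described below, and no share was computed without them. Summed over both fractions, LFD sham mice gave 38 of 864 immune cells (4.40%, 3.13 to 5.99), HFD sham mice 1 of 96 (1.04%, 0.0264 to 5.67) and HFD VSG mice 23 of 732 (3.14%, 2.00 to 4.68). Trdc-holding cells were 27.2% (24.0 to 30.6) of immune cells in the LFD sham villi and 46.4% (42.5 to 50.3) in the HFD VSG villi. These shares depend on detection at unequal depth, with medians of 3197.5 and 5685 UMIs in the Trdc-holding cells. A further 498 and 325 immune cells of these libraries held none of Trdc, Cd8b1 and Cd4. The sizes of the populations themselves were therefore not measured.

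**Figure D1:**
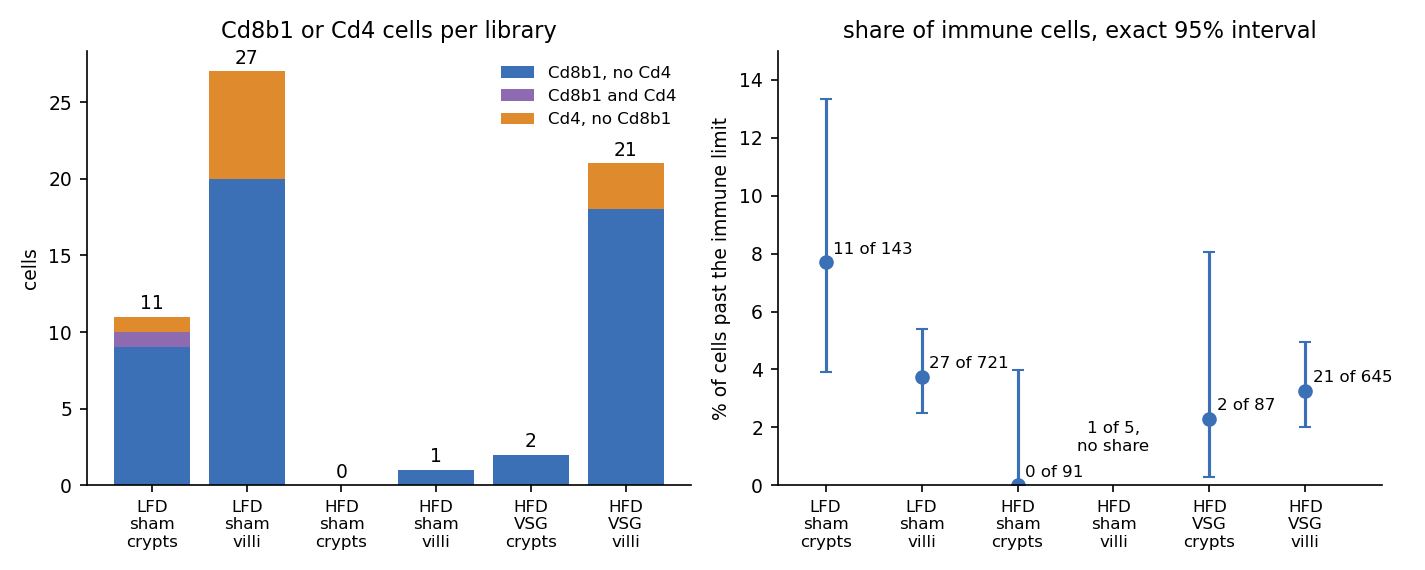
Number of cells with Cd8b1 or Cd4 RNA and no Trdc RNA in each library, by coreceptor (left), and their share of the cells past the immune limit in percent with exact 95% intervals (right, points with bars; the HFD sham villi had 5 immune cells and are given no share). The LFD sham villi with 27 and the HFD VSG villi with 21 cells hold most of them, and the intervals of the shares overlap.

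Only these 2 libraries held at least 20 of the cells, so only they were compared, and the other libraries are given as counts. The comparison differs in diet, in surgery, in the number of mice and in the preparation at once, and these cannot be told apart. In the LFD sham villi the cells held 1744 to 25984 UMIs (median 3290) and in the HFD VSG villi 3354 to 42416 UMIs (median 4964). Because deeper cells show more genes, shares of cells are also given after each cell was thinned to 1500 UMIs.

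A single UMI of Cd8b1 or Cd4 had admitted 25 of the 62 cells, so many stood at that limit, and few stood close to the limit on immune UMIs. Of the 27 and 21 cells, 1 each had 5 or 6 immune UMIs. Outside, 1 cell of the HFD VSG villi had 3 or 4 immune UMIs and otherwise met the rule, and 4 cells of the LFD sham villi and 2 of the HFD VSG villi missed only the 0.15%. A further 1 cell of the LFD sham villi, 1 of the HFD VSG crypts and 5 of the HFD VSG villi held both Trdc and a coreceptor UMI and were counted as Trdc-holding. Among epithelial cells, here those with no UMI of the 6 immune genes, 0 of 2613 in the LFD sham villi (median 13332 UMIs) and 0 of 2695 among HFD VSG villi (median 32040 UMIs) held a Cd8b1 or Cd4 UMI, and in the other libraries at most 0.0738% did.

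The T cell markers were present in most of these cells but not in all of them. Cd3g, a chain of CD3, was held by 52 of the 62 cells and Trbc2, a constant region of the beta chain, by 52, with 46 holding both. At least 1 of Cd3d, Cd3e and Cd3g was held by 58 cells, and a constant region of the alpha or beta chain (Trac, Trbc1 or Trbc2) by 58. The immune limit counted Cd3e and Cd3g, so their values partly restate the selection. Of the genes outside the rule, Cd3d was held by 49 cells. Summed over the receptor and CD3 genes, which include Cd247, the cells held a median of 17 UMIs and at most 54, and 59 of 62 held at least 1.

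The remaining 3 cells, 2 of the LFD sham crypts and 1 of the LFD sham villi, held no UMI of any receptor or CD3 gene. They shared Ly6d (8 to 30 UMIs per cell), Siglech (17 to 21) and Irf8 (12 to 34), and also held Mpeg1, Cybb and Tcf4. Siglech, a lectin of plasmacytoid dendritic cells, was at 0 in all of the 55 cells that were neither these nor over 20000 UMIs, and Irf8, a transcription factor of B cells and dendritic cells, had 4 UMIs there. These 3 cells passed the rule with 13 to 15 UMIs of the immune genes. For the coreceptor, 1 held 5 UMIs of Cd8b1, 1 held 4 of Cd8b1 and 1 of Cd4, and 1 held 2 of Cd4. They are called the Siglech-holding cells below.

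Another 4 cells had over 20000 UMIs and held RNA of epithelial cells as well as T cell RNA. The 1 of the LFD sham villi (25984 UMIs) held 393 UMIs of Fcgbp, 188 of Muc2, the main gel-forming mucin of goblet cells, 513 of Zg16 and 555 of Tff3. The 3 of the HFD VSG villi (42416, 39363 and 35701 UMIs) held 92 UMIs of Cldn3, a tight junction protein, 326 of Krt19, a keratin, and 368 of Lypd8, and 1878 of Reg3b, an antimicrobial lectin, of which 1 cell held 1470. The simulated doublet scores of the 3 were 0.323 to 0.360 and that of the 1 was 0.161. A further cell of the LFD sham villi, with 8393 UMIs and 39 of Epcam, an epithelial adhesion protein, scored 0.348, and it stays in all counts unless stated. All cells of the LFD sham villi held 116786 UMIs and those of the HFD VSG villi 214577, so the 3 deep cells weigh heavily in every CPM of the latter, and the counts without them are given below for the main genes. Without these 4 and the 3 Siglech-holding cells, together the doubted cells below, the LFD sham villi kept 25 cells with 84816 UMIs and the HFD VSG villi 18 cells with 97097 UMIs. The Trdc-holding cells also included deep cells, of up to 69009 and 70152 UMIs in these libraries. In the LFD sham villi 1 of them held 26233 UMIs of 21 genes of epithelial cells. Values of Trdc-holding cells below keep all of them.

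RNA of B and plasma cell genes was present at low counts in part of the cells. Of that list Cd79a, Ms4a1, Jchain and Igha were at 0 in all 62 cells, while Ighm, the heavy chain of IgM, had 25 UMIs in 13 cells, Igkc, a light chain, 9 in 8, Cd79b 5 in 5 and Mzb1 3 in 2. The whole list held 19 UMIs in 11 of 27 cells of the LFD sham villi and 11 in 8 of 21 among HFD VSG villi. Without the doubted cells it held 11 in 9 of 25 cells of the LFD sham villi. Each of the 3 Siglech-holding cells held 5 or 6 UMIs of it. Ncr1, which marks natural killer and some innate lymphoid cells, was at 0, and the list of such genes held 0 UMIs in the former and 6 in 3 of 21 cells in the latter. The 10 myeloid genes summed to 10 UMIs in the LFD sham villi (0 to 3 per cell) and 4 among HFD VSG villi (0 to 1 per cell). The MHC class II genes (Cd74, H2-Aa, H2-Ab1, H2-Eb1 and Ciita) summed to 63 UMIs in 21 of 27 cells of the LFD sham villi, at most 20 in a cell, and to 0 in all 21 cells of the HFD VSG villi. The cell with 20 was the Siglech-holding one. Without the doubted cells they summed to 37 UMIs in 19 of 25 cells of the LFD sham villi, at most 11 in a cell. In Trdc-holding cells these genes summed to 326 CPM in the LFD sham villi and 38.3 CPM among HFD VSG villi. The 21 epithelial genes, which mark RNA from neighbouring cells, made up a median of 1.82% of UMIs in the cells of the LFD sham villi and 0.910% in those of the HFD VSG villi, against 8.28% and 6.57% in droplets with fewer than 100 UMIs of the same libraries. With this RNA subtracted, 701 genes passed the limit on UMIs in the comparison of the 2 libraries below, 150 of them more than 2-fold higher and 88 more than 2-fold lower in the HFD VSG villi.

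The coreceptor was Cd8b1 in most cells. Cd8b1 without Cd4 was held by 50 cells, Cd4 without Cd8b1 by 11 and both by 1 cell of the LFD sham crypts, which was among the Siglech-holding cells. The share with Cd8b1 only was 74.1% (53.7 to 88.9) of the 27 cells in the LFD sham villi and 85.7% (63.7 to 97.0) of the 21 in the HFD VSG villi, and the intervals overlapped. Cd8a (chr6:71373427-71379173, mm10), which encodes the partner chain of CD8 beta and lies beside Cd8b1 (chr6:71322788-71337494), was not used by the rule. It was held by 43 of the 50 Cd8b1-only cells and by 3 of the 11 Cd4-only cells. In the HFD VSG villi 20 of 21 cells held 1 to 11 UMIs of Cd8a, and in the LFD sham villi 16 of 27 held 1 to 8.

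The receptor genes of the alpha-beta and gamma-delta lineages were not cleanly separated. Although Trdc was at 0 by the rule, 29 of the 62 cells held a constant region of the gamma chain: Tcrg-C2 in 20 cells, Tcrg-C4 in 17 and Tcrg-C1 in 8, and 19 held the variable segment Trgv2. The Tcrg constant regions are related in sequence, and whether reads were divided correctly among them was not tested. No cell held a delta variable segment of the 6 in the files. Alpha variable segments gave 5 UMIs in 4 cells and beta variable segments 10 UMIs in 10 cells. Requiring no gamma-delta constant region and at least 1 alpha-beta constant UMI left 29 cells, 13 in the LFD sham villi and 12 among HFD VSG villi.

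**Figure D2:**
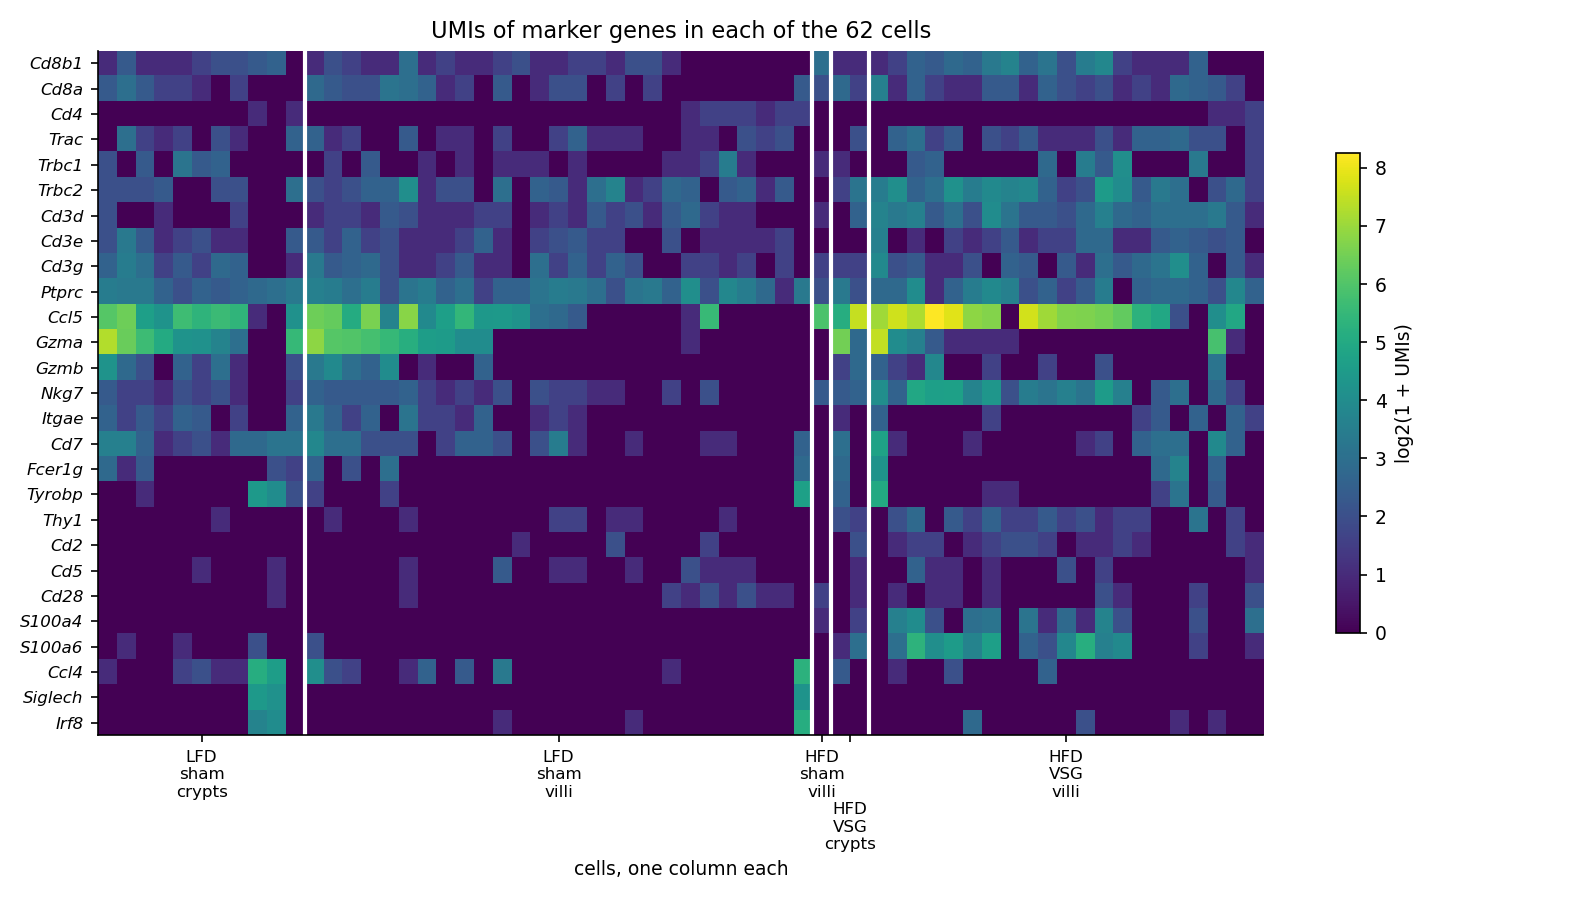
UMIs of 27 marker genes (rows) in each of the 62 cells (columns), as log2(1 + UMIs), with white lines between libraries. S100a4 and S100a6 stand out in the HFD VSG villi on the right, and Siglech and Irf8 mark the 3 cells without receptor genes in the LFD sham libraries.

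At 1500 UMIs per cell, 44% of the 50 Cd8b1-only cells held Cd5, Cd2, Cd28 or Thy1, surface proteins of conventional T cells, and 18% held Fcer1g or Tyrobp, signalling adaptors of natural killer cells and natural intraepithelial T cells. In the LFD sham villi 8 of 20 held the former, 1 the latter and 11 neither. Of the 18 from HFD VSG villi 10 held the former, 3 the latter and 5 neither. No cell of these 2 libraries held both sets at this depth, and at the cells' own depth 0 of 20 and 2 of 18 did. These 6 genes do not stand for the whole lists of induced and natural types. Among natural genes, Cd160 was held by 24, Klrd1 by 21 and Cd96 by 21 of the 50 cells at their own depth. The other natural genes were held by 3 (Cd101) to 17 (Ikzf2). Among induced genes the numbers were 23 for Thy1, 20 for Cd6, 20 for Cd226, 19 for Cd27, 15 for Cd2, 14 for Cd5, 12 for Cd28 and 12 for Il7r. Over the whole lists at the cells' own depth, 20 of 27 Cd8b1/Cd4 cells in the LFD sham villi and 17 of 21 among HFD VSG villi held a natural gene. An induced gene was held by 25 and 19. Of the Trdc-holding cells, 195 of 196 and 299 of 299 held a natural gene at their own depth, and 111 and 203 an induced one. At 1500 UMIs per cell, 68.9% (61.9 to 75.3) of Trdc-holding cells in the LFD sham villi held Fcer1g or Tyrobp. There 5.61% (2.83 to 9.82) held Cd5, Cd2, Cd28 or Thy1. In the HFD VSG villi the shares at 1500 UMIs were 88.2% (84.0 to 91.7) and 11.4% (8.06 to 15.6). Of the 9 Cd8b1-only cells of the LFD sham crypts 4 held Fcer1g or Tyrobp and 1 held Cd5, Cd2, Cd28 or Thy1 at 1500 UMIs. At their own depth 4 and 3 did. Without the doubted cell 3 and 0 of 8 did at 1500 UMIs, which is too few for a comparison.

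Thy1 was held by 15 of 21 cells in the HFD VSG villi (48 UMIs, 1 to 8 per holding cell) and by 7 of 27 in the LFD sham villi (9 UMIs, at most 2). Cd2, which binds CD48 on other cells, was held by 14 of 21 and 3 of 27. At 1500 UMIs the shares were 42.9% and 22.2% for Thy1 and 9.52% and 7.41% for Cd2, so the difference in Cd2 was seen only at the cells' own depth. Without the cells named above Thy1 had 38 UMIs in 12 of 18 cells against 9 in 7 of 25. Cd5 was held by 7 of 21 and 9 of 27 cells, and Cd28, the costimulatory receptor, by 8 of 21 and 8 of 27.

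The effector genes were carried by part of the cells. Ccl5, a chemokine of cytotoxic T cells that the rule counts, was held by 17 of 27 cells in the LFD sham villi (618 UMIs, at most 110 per cell) and 18 of 21 among HFD VSG villi (2058 UMIs, at most 303). Gzma, a granzyme that the rule also counts, was held by 11 of 27 (454 UMIs) and 10 of 21 (269 UMIs, of which 1 cell held 178). Among the genes the rule did not use, Gzmb was held by 7 and 8 cells, and Nkg7, a protein of cytotoxic granules, by 18 and 18 cells with 49 and 223 UMIs. Prf1, which encodes perforin, was held by 6 and 4 cells, and Gzmc by none of the 62. Gzma went with Itgae in the LFD sham villi, where 9 cells held both, 2 held Gzma only, 3 held Itgae only and 13 held neither. For the HFD VSG villi those numbers were 3, 7, 4 and 7.

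RNA of most cytokine genes measured was scarce, while Tgfb1 had 28 UMIs in 21 of the 62 cells and the chemokine Xcl1 54 in 12. Ifng, encoding interferon gamma, was held by 6 of the 62 cells with 7 UMIs, Tnf by 4 with 5 UMIs, and Il17a by 1 Cd4-only cell with 4 UMIs. Il2, Il10, Il21, Il22 and Csf2 were at 0 in all 62 cells, which at this number of cells allows a share with a UMI of up to 4.84%. Foxp3, the factor of regulatory T cells, and Il2ra were also at 0 in all of them. Zfp683, a factor of tissue-resident T cells, was at 0 too, while Runx3, which directs CD8 lineage genes, was held by 12 of 27 cells in the LFD sham villi and 20 of 21 among HFD VSG villi (18.5% and 33.3% at 1500 UMIs). Mki67, which marks dividing cells, was held by 6 of 62, and by 3 of the 55 cells left without the doubted cells.

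S100a4 and S100a6 had the largest ratios between the 2 libraries among the genes named by the rule given below. Both passed the limits of that rule only through the HFD VSG villi, where they were high, so their ratios are a description. They encode small calcium-binding proteins and lie on the same chromosome (S100a4 chr3:90603771-90606045, S100a6 chr3:90612882-90624181). In the HFD VSG villi 13 of 21 cells held S100a4 with 1 to 15 UMIs per holding cell (85 in all) and 14 of 21 held S100a6 with 1 to 39 (204 in all). In the LFD sham villi S100a4 was at 0 in all 27 cells and S100a6 had 3 UMIs, all in 1 cell. All 13 cells with S100a4 also held S100a6. At 1500 UMIs per cell S100a4 was held by 9 of 21 (42.9%) against 0 of 27, and S100a6 by 10 of 21 (47.6%) against 0 of 27. Of the 2 libraries compared, the high cells were thus in 1, but not every cell of it was high. Without the cells over 20000 UMIs, S100a4 had 69 UMIs in 10 of 18 cells and S100a6 133 in 11 of 18, against 0 and 0 in the 25 kept cells of the LFD sham villi.

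The same 2 genes were held by few of the other cells of the HFD VSG villi library. S100a4 was at 0 in all 299 Trdc-holding cells and in all thinned epithelial cells of both libraries. S100a6 was held at 1500 UMIs by 3.03% of Trdc-holding and 6.70% of epithelial cells of the HFD VSG villi. Of the 325 immune cells there with none of Trdc, Cd8b1 and Cd4, 4 held S100a4 (5 UMIs) and 32 held S100a6 (111 UMIs), or 0.635% and 3.49% at 1500 UMIs. Elsewhere, S100a4 was held by 1 of 2 cells of the HFD VSG crypts and by the 1 cell of the HFD sham villi, and by 0 of 11 cells of the LFD sham crypts. S100a6 was held by 2 of 2, 0 of 1 and 3 of 11 cells of these libraries.

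Over the 1187 genes that averaged 20 or more UMIs per sum, 269 (22.7%) were more than 2-fold higher and 165 (13.9%) more than 2-fold lower in the HFD VSG villi than in the LFD sham villi, with a median log2 ratio of 0.26. The split depended on the scaling: after median-of-ratios scaling, which sets the median at 0, 181 genes were higher and 241 lower. The numbers describe size and call no gene changed. By the rule for named genes, which leaves out genes carried by 1 cell or by free RNA, the highest were S100a6 (950.7 against 25.7 CPM, log2 5.21, 3.64 to 7.50), S100a4 (396 CPM against 0, at least 15.4-fold higher against a floor of 3 UMIs), Lgals1 (410 against 77.1 CPM, 2.41, 1.42 to 3.59), Psmd8 (224 against 51.4 CPM, 2.12) and Psmb10 (256 against 59.9 CPM, 2.10). Lgals1 encodes galectin-1, and Psmd8 and Psmb10 encode subunits of the proteasome and immunoproteasome. Lgals1, Psmd8 and Psmb10 had 9, 6 and 7 UMIs in the LFD sham villi. Like S100a4 and S100a6, they passed the limit on UMIs only through the HFD VSG villi, so these ratios are a description. Without the doubted cells Lgals1 had 72 UMIs in 9 of 18 cells against 4 in 3 of 25, Psmd8 19 in 11 against 4 in 4, and Psmb10 21 in 12 against 6 in 6. At 1500 UMIs Lgals1 was held by 33.3% against 11.1%, Psmd8 by 14.3% against 7.41% and Psmb10 by 42.9% against 11.1%.

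The lowest were Hsph1 (69.9 against 299.7 CPM, log2 −2.10, −3.08 to −1.19), Ssh2 (−1.77), Utrn (−1.75), Ptpn22 (−1.74) and Itgae (−1.66, −2.43 to −0.92). Hsph1 is a heat shock protein, Ptpn22 a phosphatase that restrains receptor signals, and Itgae encodes integrin alpha E, which binds E-cadherin of epithelial cells. The UMIs of the 3 deep cells enter these CPM values. Without the doubted cells Hsph1 had 10 UMIs in 6 of 18 cells against 31 in 16 of 25, Ssh2 15 in 11 against 30 in 13, Utrn 13 in 8 against 26 in 18, and Ptpn22 26 in 12 against 49 in 18. At 1500 UMIs Hsph1 was held by 9.52% against 37.0%, Ssh2 by 14.3% against 33.3%, Utrn by 14.3% against 37.0% and Ptpn22 by 33.3% against 55.6%. Itgae had 43 UMIs in 12 of 27 cells of the LFD sham villi and 25 in 7 of 21 of the HFD VSG villi, but 34 in 11 of 25 and 23 in 6 of 18 without the doubted cells, and at 1500 UMIs it was held by 25.9% and 28.6%, with a log2 ratio of −0.40. Gzma (log2 −1.63, −1.86 to −1.41) likewise had 341 UMIs in 10 of 25 and 267 in 8 of 18 kept cells, and a log2 ratio of −0.88 once cells were thinned. Its interval does not cover the spread between cells, and 1 cell held 178 of the 269 UMIs in the HFD VSG villi. Without the cell that scored 0.348 as well, a choice made after seeing the data, the LFD sham villi had 296 UMIs of Gzma in 9 of 24 cells and 34 of Itgae in 11 of 24. Gzma then stood at 3873 CPM there, against 2750 CPM in the 18 kept cells of the HFD VSG villi. Ccl5 (0.86, 0.73 to 0.99) had 532 UMIs in 16 of 25 and 1742 in 15 of 18 kept cells. The rule counted both Ccl5 and Gzma, so their values are a description.

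Genes of homing and residency were mixed. The list summed to 1156 CPM in the HFD VSG villi and 1875 CPM in the LFD sham villi, but to 1947 and 2004 CPM without the doubted cells. Cd69, which retains T cells in tissue, had a log2 ratio of −1.74 (−2.71 to −0.81) and was held by 14 of 27 and 9 of 21 cells. Ccr9, the receptor for the small-intestinal chemokine CCL25, fell below the limit on counts, with 22 UMIs in 8 of 27 cells and 2 UMIs in 2 of 21. Cxcr6 and Cxcr3, chemokine receptors of effector T cells, stood the other way, in 2 and 4 of 27 cells against 10 and 11 of 21. Itga4, the alpha 4 integrin chain, was held by 9 of 27 and 15 of 21 cells, and 11 of the 13 S100a4-holding cells held it. At 1500 UMIs the shares in the LFD sham and HFD VSG villi were 37.0% and 9.52% for Cd69, 22.2% and 4.76% for Ccr9, 3.70% and 9.52% for Cxcr6, 25.9% and 47.6% for Itga4, and 7.41% and 4.76% for Cxcr3, which thus stood the other way only at the cells' own depth.

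The 14 genes of the immediate response to stimulation summed to 3062 CPM in the Cd8b1/Cd4 cells of the HFD VSG villi and 5480 CPM in those of the LFD sham villi, or 3368 CPM (327 UMIs in 18 cells) and 6791 CPM (576 in 25) without the doubted cells. Nr4a2 was at log2 −3.20 (−4.11 to −2.39) and Junb at −1.25 (−1.59 to −0.91). In the Trdc-holding cells of the same libraries, where all genes of the list passed the limit on UMIs, 7 of 14 were more than 2-fold lower (median −1.17), against 375 of 7664 genes (4.89%) lower and 788 (10.3%) higher there. Not all genes of the list were lower among the Cd8b1/Cd4 cells. Rgs1 was at −0.03 (−0.47 to 0.41) and Zfp36 at 0.20 (−0.64 to 1.10, and −1.22 once cells were thinned). Fos was at 0.67, with 40.3% of its 129 UMIs in 1 cell, and at −2.37 once cells were thinned. Ccl4, a chemokine released on activation, had 79 UMIs in 9 of 27 cells, of which 1 Siglech-holding cell held 38, and 9 UMIs in 3 of 21.

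Nuclear genes of the respiratory chain were more than 2-fold higher in the HFD VSG villi in 11 of 12 cases (median log2 1.52), beside 22.7% of all genes, for example Cox4i1 (372 against 75 UMIs, 1.43) and Ndufa4 (187 against 25, 2.03). In the Trdc-holding cells 10 of 12 were more than 2-fold higher (median 1.29), beside 10.3% of all genes. Without the doubted cells the 12 genes summed to 572 UMIs in 18 cells (5891 CPM) and 298 in 25 (3513 CPM), where all cells gave 10756 and 3699 CPM. Cox4i1 and Ndufa4 also had larger shares in near-empty droplets than in the cells. Of the mitochondrially encoded genes, whose sum the limit on cells used, 0 were more than 2-fold higher and 4 lower of 12 (median −0.40). In the Trdc-holding cells 0 were higher and 3 lower of 13 (median −0.23). The shares of all genes lower were 13.9% and 4.89%. Without the doubted cells they summed to 29465 CPM in the HFD VSG villi and 58421 CPM in the LFD sham villi. The 4 genes that overlap ribosomal RNA (Gm42418, Gm26917, AY036118 and Lars2) were more than 2-fold lower in 4 of 4 cases in either kind of cell, with medians of −2.59 and −1.76, beside 13.9% and 4.89% of all genes. These lists moved with the library in both kinds of cell, and the part of the preparation in them was not tested.

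Other ratios had different sizes in Trdc-holding and Cd8b1/Cd4 cells, and the difference between the ratios was not tested. S100a6 was at log2 0.48 (−0.38 to 1.43) in Trdc-holding cells against 5.21, the latter a description only, as stated above. Ccl5, which the immune limit counted in both kinds of cell and is a description only, was at −0.19 (−0.22 to −0.15) against 0.86. Hsph1 was low in both, at −2.56 and −2.10. Thy1 was at 0.80 (0.24 to 1.40) against 1.54 (0.49 to 2.75), with overlapping intervals.

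**Figure D3:**
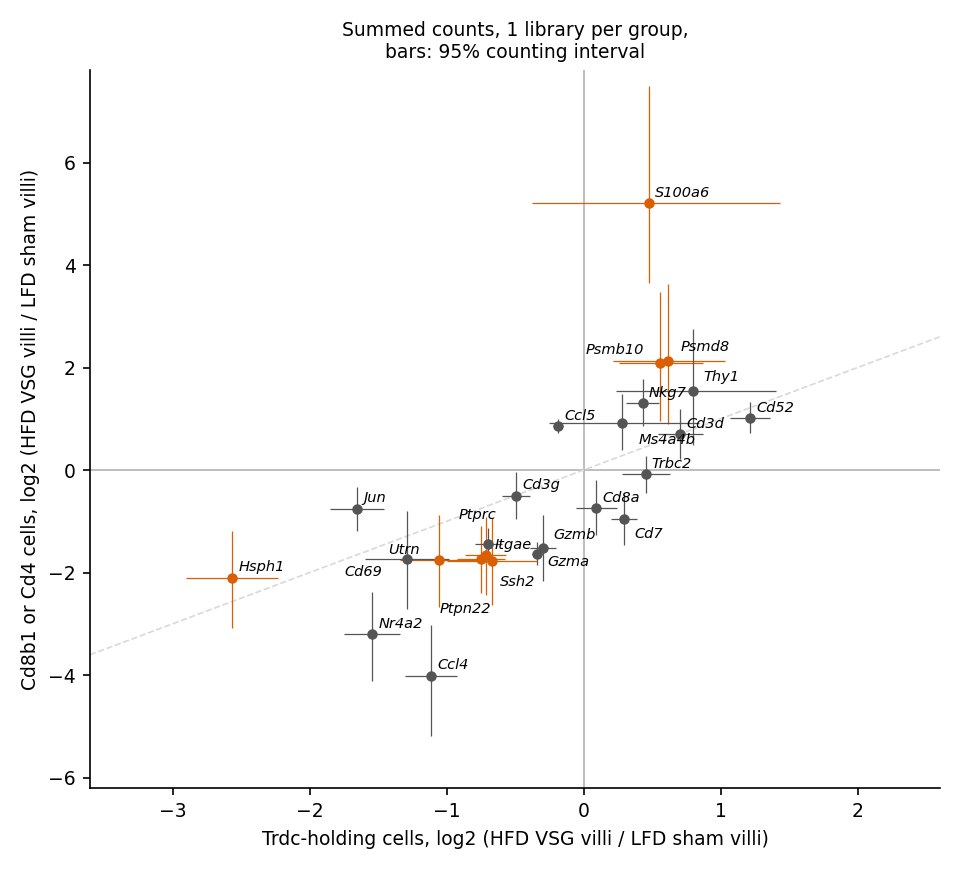
Log2 ratio of CPM, HFD VSG villi over LFD sham villi, in Trdc-holding cells (x) and in Cd8b1/Cd4 cells (y), with 95% counting intervals as bars, a dashed line of equal ratios, and orange points for genes named by the rule. S100a6 lies at 0.48 on x and 5.21 on y, Hsph1 is low on both axes, and S100a4 and Lgals1 are not drawn because they had too few UMIs in Trdc-holding cells.

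Within each library the Cd8b1/Cd4 cells were set against the Trdc-holding cells. In the LFD sham villi 172 of 3441 genes (5%) were more than 2-fold higher and 320 (9.3%) more than 2-fold lower in the Cd8b1/Cd4 cells. After thinning, 41 and 117 of 1297 genes were. In the HFD VSG villi 271 of 6957 genes (3.9%) were higher and 770 (11.1%) lower, or 450 and 520 after median-of-ratios scaling. After thinning, 95 and 97 of 1850 genes were. The Trdc-holding sums were the larger ones (764252 against 116786 UMIs, and 2352633 against 214577). A gene could thus pass the limit on UMIs through the Trdc-holding cells alone. These counts are therefore no result about the Cd8b1/Cd4 cells. Trdc, Cd8b1 and Cd4 were used by the rule and are no result, although Trdc and Cd8b1 are among the genes counted. The limit on immune UMIs admitted both kinds of cell through Gzma, Ccl5, Cd7, Ptprc, Cd3e and Cd3g, so their values are a description.

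The gene that led in the LFD sham villi was Ms4a4b, a membrane protein of T cells. It stood at 317 CPM in the Cd8b1/Cd4 cells and 48.4 CPM in the Trdc-holding cells (log2 2.71, 2.01 to 3.41), and in the HFD VSG villi at 601 and 58.7 CPM (3.36, 3.00 to 3.71). At 1500 UMIs 48.1% of Cd8b1/Cd4 and 6.12% of Trdc-holding cells held it in the LFD sham villi, and 47.6% and 11.4% in the HFD VSG villi. The next in the LFD sham villi were Atp1b3 (1.97), Spata13 (1.84), Ripor2 (1.75) and Sh3kbp1 (1.65). In the HFD VSG villi the leading genes were S100a4 (85 UMIs against 0 in 299 cells, at least 311-fold higher against a floor of 3 UMIs), Klf2 (66 UMIs against 5, log2 7.18, 5.88 to 8.85), Lgals1 (88 against 10 UMIs, 6.59) and S100a6 (204 against 60 UMIs, 5.22). Of these, S100a4, Klf2 and Lgals1 passed the limit on UMIs only through the Cd8b1/Cd4 cells, so their ratios are a description. Klf2, a transcription factor of circulating and resting T cells that maintains the egress receptor S1pr1, was held at 1500 UMIs by 25.9% of Cd8b1/Cd4 cells in the LFD sham villi and 38.1% among HFD VSG villi, against 1.02% and 0.337% of Trdc-holding cells.

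The 10 genes of natural intraepithelial lymphocytes summed to 1421 CPM in the Cd8b1/Cd4 cells and 3232 CPM in the Trdc-holding cells of the LFD sham villi, and to 951 and 4639 CPM among HFD VSG villi. The Cd8b1/Cd4 sums were 1250 and 1874 CPM without the doubted cells, while the Trdc-holding sums keep their deep cells. At 1500 UMIs a gene of this list was held by 18 of 27 Cd8b1/Cd4 and 190 of 196 Trdc-holding cells in the LFD sham villi, and by 11 of 21 and 284 of 297 among HFD VSG villi. No count of lower genes is given, since some passed the limit on UMIs only through the Trdc-holding cells. Fcer1g was at log2 −2.30 (−3.00 to −1.67) and −3.13 (−3.61 to −2.69), or −3.43 and −1.82 once cells were thinned. Cd244a, a receptor of the SLAM family, was at −1.95 and −2.67 (thinned −2.03 and −1.89), and Cd160 at −0.43 (−1.04 to 0.13) and −2.34 (−3.01 to −1.75), or −0.10 and −1.58 thinned. Of the cytotoxic genes Gzmb stood at −1.81 and −3.03, Gzmk the other way at 1.12 (−0.07 to 2.20, 10 against 30 UMIs) and 3.20 (2.29 to 4.10, 21 against 25 UMIs), and Gzma, which the immune limit counted, stood at −1.68 and −2.97. Itgae stood at −0.995 and −1.94, but at −0.94 and −0.74 once cells were thinned, within 2-fold in both libraries. Of the 7 genes of the receptor and CD3, Trac stood at 0.72 and 0.81 and Trbc2 at 1.03 and 0.50, while Trbc1 stood at −0.30 and −0.63 and Cd3g, which the immune limit counted, at −1.33 and −1.34. Cd3e, which the immune limit also counted, had 49 against 704 UMIs and 60 against 1398. Cd3d had 48 against 370 and 143 against 1859, and Cd247 had 4 against 57 and 13 against 161. Cd8a was at −0.34 (−0.76 to 0.06) in the LFD sham villi. Among HFD VSG villi it was at −1.17, but at −0.16 once cells were thinned.

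The remaining low genes named by the rule were Tcrg-C1 (4 against 380 UMIs in the LFD sham villi and 9 against 1331 among HFD VSG villi, log2 −3.86 and −3.75), Fgl2 (−2.35) and Ntan1 (3 against 119 UMIs) in the LFD sham villi, and Chn2 (2 against 340 UMIs) and Klra5 (2 against 322 UMIs), a natural killer receptor of the Ly49 family, in the HFD VSG villi. Osbpl3 had 1 UMI against 97 in the LFD sham villi. Ntan1, Osbpl3, Chn2 and Klra5 passed the limit on UMIs only through the Trdc-holding cells, so they are no result about the Cd8b1/Cd4 cells. Once cells were thinned, the ratios were −0.84 for Chn2, −0.68 for Klra5, −0.88 for Osbpl3 and −1.34 for Ntan1. Their Cd8b1/Cd4 sums could then be at most 3 UMIs and were set to that floor. These thinned ratios are therefore limits and give no size. Tcrg-C1 encodes a part of the same receptor as Trdc, by which the rule divided the cells.

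**Figure D4:**
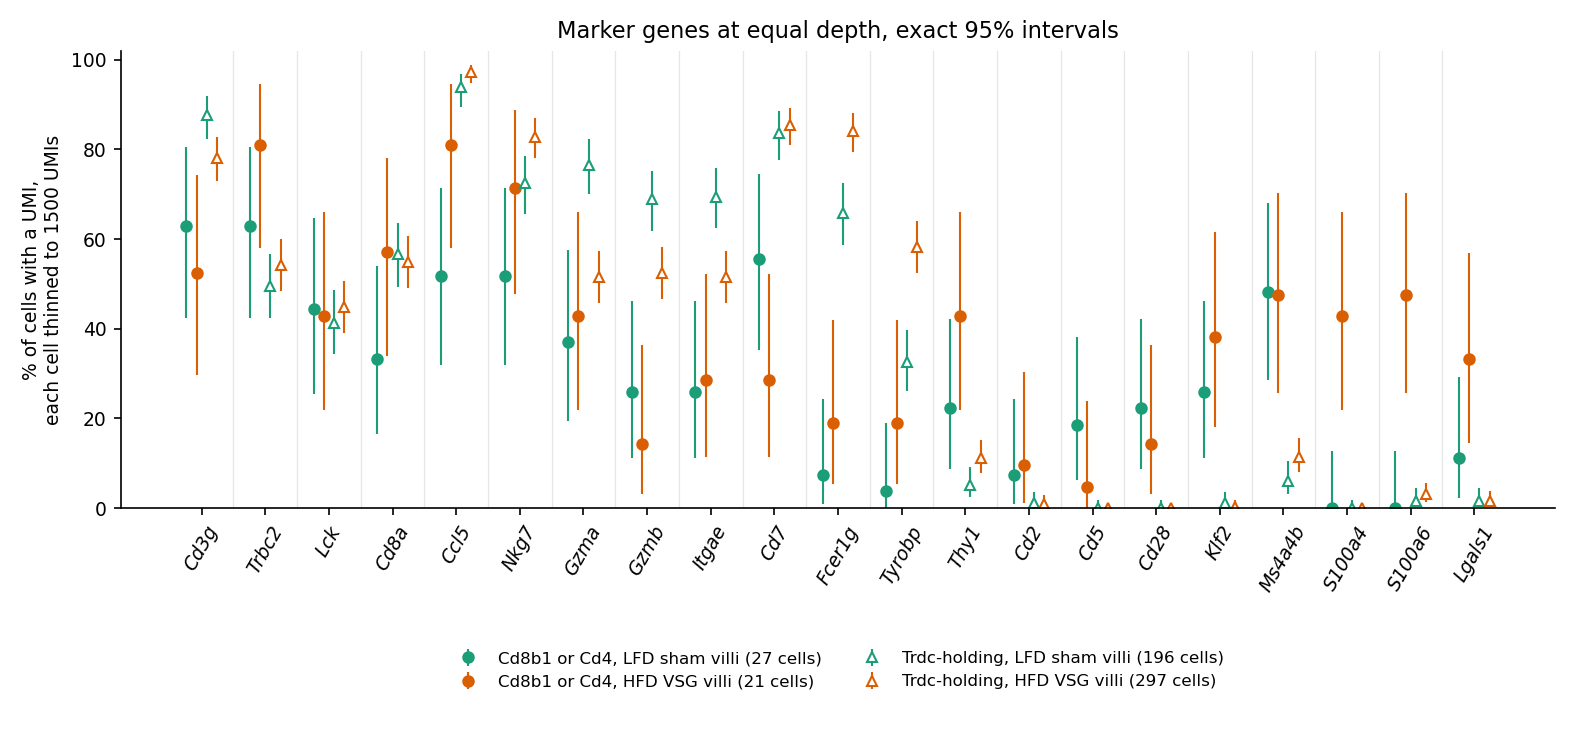
Percent of cells with at least 1 UMI of each gene after every cell was thinned to 1500 UMIs, for Cd8b1/Cd4 cells (filled circles) and Trdc-holding cells (open triangles) of the LFD sham villi (green) and HFD VSG villi (orange), with exact 95% intervals. Fcer1g has the higher percent in Trdc-holding cells of both libraries, Ms4a4b and Klf2 in Cd8b1/Cd4 cells of both, and of the 4 sets drawn S100a4 has UMIs in the Cd8b1/Cd4 cells of the HFD VSG villi alone.

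The 11 Cd4-only cells, 7 of them from the LFD sham villi, 3 from the HFD VSG villi and 1 from the LFD sham crypts, were set beside the 50 Cd8b1-only cells only as pooled counts, since no library held 20 of each. Over 2967 genes averaging 10 or more UMIs per sum, 217 (7.31%) were more than 2-fold higher and 325 (11%) more than 2-fold lower in the Cd8b1-only cells. Because the 2 kinds came from the libraries in different proportions, a difference between libraries enters these counts.

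Ccl5, which the rule counts, was held by 42 of 50 Cd8b1-only cells (3232 UMIs) and 5 of 11 Cd4-only cells (110 UMIs). Nkg7 was held by 44 of 50 (292 UMIs) and 4 of 11 (13 UMIs). S100a6 was held by 18 of 50 and 1 of 11. Maf, a transcription factor of helper cells, was held by 18 of 50 and 6 of 11, and its 37 UMIs in the Cd4-only cells included 35.1% in 1 cell. Cd28 was held by 12 of 50 (17 UMIs) and 7 of 11 (13 UMIs). Tcf7, a factor of naive and memory T cells, was held by 13 of 50 (18 UMIs) and 7 of 11 (12 UMIs). The 4 cells over 20000 UMIs were all Cd8b1-only cells. Without the doubted cells, Ptprc, which encodes CD45 and was counted by the rule, had 282 UMIs in 44 of 45 Cd8b1-only cells. It had 79 UMIs in 10 of 10 Cd4-only cells. Among these 45 and 10 cells Ccl5 had 2830 UMIs in 38 and 110 in 5, Nkg7 248 in 40 and 13 in 4, and Cd28 15 in 10 and 13 in 7. Fcer1g was held by 11 of 50 and 3 of 11 cells and Itgae by 25 of 50 and 3 of 11. Among the 11 Cd4-only cells was the Siglech-holding cell of the LFD sham villi.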

How the data were processed

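Droplet-based 3′ libraries from the jejunal epithelium of mice of 3 groups (LFD sham, HFD sham, HFD VSG) were analysed, with 1 pooled crypt-labelled and 1 pooled villus-labelled library for each group. The authors made the deposited UMI counts with Cell Ranger 6.0.0 against mm10. The counts are whole numbers, not normalized, and both the filtered and the unfiltered matrices were read. The study removed free RNA and doublets in later steps of its own, which were not applied here to the 59457 called barcodes of the filtered matrices. Groups were taken from the sample labels.

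Cells were kept with at least 750 genes and at most 20% mitochondrial UMIs and chosen as stated in the results. The cells, the gene lists and the comparisons were chosen with earlier results of these data known. UMIs were summed per library and kind of cell and given as CPM, and log2 ratios were taken over genes averaging 20 or more UMIs per sum. The coreceptor subsets were pooled over libraries and are given as counts. With 1 library per group no test was run. Intervals are exact 95% binomial or Poisson intervals, and a count of 0 was bounded at 3 UMIs. The code was tested on simulated data. Cells were thinned to 1500 UMIs to compare shares of cells. Free RNA was measured in droplets with fewer than 100 UMIs. Doublets were scored per library (Scrublet in scanpy 1.11.5) and left in, except as an alternative. Besides genes of the lists, the text names the 5 highest and 5 lowest ratios by a rule. This was done for Cd8b1/Cd4 cells between the villus-labelled libraries and against Trdc-holding cells in each. The rule took genes with at least 50 UMIs, UMIs in at least 10 cells of the higher group, at most 25% of them in 1 cell, and a smaller share in near-empty droplets. Epithelial, mitochondrial, ribosomal and rRNA-overlapping genes were left out. Gene positions are from GENCODE vM21 on mm10, matched by gene ID. Python 3.11.15, numpy 2.4.6, scipy 1.17.1, pandas 2.3.3 and matplotlib 3.10.9 were used. Alternatives were other limits on cells and genes, other scalings, thinning, subtraction of free RNA, doublets left out and a stricter alpha-beta definition. Those without cells over 20000 UMIs or without receptor UMIs were chosen after seeing the data.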

Additional observations from a re-analysis of the deposited data

How the results depend on the processing

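The ratios of the genes named by the rule and of 10 others were recomputed under every alternative that could be run, and kept their direction except that 3 ratios near 0 took both signs (Fcer1g between libraries, −0.18 to 0.50, and against Trdc-holding cells Nr4a2 in the LFD sham villi, −0.03 to 0.59, and Ccl5 in the HFD VSG villi, −0.05 to 0.55). Ratios of further genes were recomputed by thinning, and of those printed above Fos (0.67 to −2.37), Zfp36 (0.20 to −1.22) and Rgs1 (−0.03 to 0.06) between libraries and Trbc1 against Trdc-holding cells in the HFD VSG villi (−0.63 to 0.38) changed sign. Of the values that answer a comparison, 101 stayed within their limits and 32 moved, and of those for single named genes 560 stayed and 48 moved. The number of cells depended on the definition. Requiring 1500 genes left 37 cells (11 in the LFD sham villi), requiring 2 coreceptor UMIs left 37 (15 in the LFD sham villi), and requiring an alpha-beta and no gamma-delta constant region left 29 (13 from LFD sham villi, 12 from HFD VSG villi). Fcer1g or Tyrobp was then held by 6.67% of Cd8b1-only cells with 2 coreceptor UMIs and by 4.55% under the alpha-beta definition, where 68.2% held Cd5, Cd2, Cd28 or Thy1. At the cells' own depth 60% held the latter. As reported, 18% held the former and 44% the latter.

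The numbers of genes beyond 2-fold moved with the genes admitted. Between the villus-labelled libraries they were 150 higher and 88 lower with free RNA subtracted, 113 and 45 at a mean of 50 UMIs, 682 and 1092 at a mean of 5, and 35 and 26 after thinning. Against Trdc-holding cells of the LFD sham villi they were 36 and 88 at a mean of 50, 41 and 117 after thinning, and 1156 higher at a mean of 5. Without cells over 20000 UMIs 106 were higher there, and 93 without these and the cells lacking receptor UMIs. In the HFD VSG villi they were 94 and 503 at a mean of 50, 95 and 97 after thinning, 1693 higher at a mean of 5 and 450 higher under median-of-ratios scaling. Thinning and higher minimums admit fewer genes, and other causes were not tested.

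The ratios between libraries could not be fitted with under 20 cells in a library. This was so with 1500 genes, 2 coreceptor UMIs, doublets left out (18 cells in the HFD VSG villi), the alpha-beta definition, and without cells over 20000 UMIs (18), the last chosen after seeing the data. No paired analysis was possible because each diet and surgery group had 1 library per fraction and the result comes from no test. Leaving out a replicate was not possible for the same reason. With 62 cells, and 25 of them resting on 1 coreceptor UMI, small groups and rare genes were not measurable at this depth.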
